A study of Homo sapiens with 9 samples.

Results

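Potassium channel genes were taken as the gene symbols made of KCN, 1 or 2 letters and a number, with at least 20 counts summed over the 9 libraries. Of 95 such symbols among the 58920 listed, 27 reached that level, 27 had 1 to 19 counts and 41 had 0. The members just inside the limit were KCNJ13 with 20 counts and KCNE5 with 22, and the symbols just outside it were KCNG3 with 15 and KCNMB4 with 13. All 27 members were among the 19102 genes tested, because the filter for testing asked for only 10 counts.

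LIM1215 is a human colorectal cancer cell line without RAS mutation that responds to cetuximab, an antibody against the EGF receptor. LIM1215-R1 (R1, labelled Resistant_1) and LIM1215-R2 (R2, labelled Resistant_2) are mixed, non-clonal populations that were selected independently over months in rising cetuximab, and LIM1215-parental cells (parental) were kept in culture alongside them without the drug. In R1 and R2 the study reports activating HRAS mutations, in a different exon in each line and only in part of the cells. Poly(A) RNA of the 3 lines was sequenced without further drug treatment, in 3 libraries per line. A supplementary legend of the study calls these replicates technical, so the spread between them, and with it every test, describes these libraries and cannot separate the lines from their culture or harvest. In bulk RNA, fewer cells that express a gene and less RNA per cell cannot be told apart.

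Potassium channels let potassium leave or enter the cell along its gradient and so set the membrane voltage. In colonic epithelium they sit in the basolateral and apical membranes, where the exit of potassium keeps the driving force for chloride secretion through CFTR and for sodium uptake. Voltage-gated, calcium-activated, inward rectifier and two-pore-domain channels differ in what opens them, and auxiliary subunits change the gating of the pores they bind.

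Total counts per library lay between 13737416 and 18725014, and 3 counts, the limit that a count of 0 allows, were 0.16 to 0.218 CPM in a library (counts scaled to 1000000 per library, with TMM factors). Intervals of this kind cover counting error only, and such limits cover only that of the count of 0. Of 12 markers of colon epithelium, 11 were counted in every line, with summed CPM of 13361 to 13721 in parental cells, 16682 to 16972 in R1 and 15108 to 15519 in R2, and KRT20 had 0 counts. That sum was carried by KRT8 and KRT18, which rose in both resistant lines. At an adjusted p of 0.01 or less, 4 of the 11 were higher and 6 lower in each of them. The shares over all genes tested, which were not matched for level, were 14.0% and 13.4% in R1 and 12.3% and 11.6% in R2. Among the lower ones, EPCAM fell from 911 ± 25.6 CPM to 758 ± 47.1 in R1 and 729 ± 4.80 in R2. CDX1 fell further, by 0.85 in R1 and 0.65 in R2 on the log2 scale. Markers of other cells that carry potassium channels stayed low, with at most 1.37 summed CPM for muscle (MYH11 at 0), 1.95 for neurons and glia (SNAP25 and STMN2 at 0), 3.19 for fibroblasts (COL1A2 at 0), 0.722 for endothelium (KDR at 0) and 14.7 for immune cells (PTPRC and CD3E at 0).

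At least 1 count was found for 54 of the 95 potassium channel symbols, against 28824 of all 58920 symbols listed. Members made up 9 of 30 voltage-gated pore genes, 2 of 10 silent voltage-gated subunits, 5 of 12 auxiliary subunits of voltage-gated channels, 2 of 8 calcium- or sodium-activated pores, 1 of 4 auxiliary subunits of the large-conductance calcium-activated channel, 4 of 16 inward rectifiers and 4 of 15 two-pore-domain channels. Their summed level was 471 ± 14.0 CPM in parental cells, 416 ± 10.2 CPM in R1 and 407 ± 4.59 CPM in R2 (SD, n = 3). The 6 most counted members, KCNE3, KCNQ1, KCNK1, KCNAB2, KCNK5 and KCNK6, held 85.2%, 83.7% and 83.8% of that sum.

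To compare levels between genes, CPM were divided by the length of the MANE Select transcript in kilobases. KCNE3 was highest in every line, with a level of 33.8 CPM per kilobase in parental cells, 29.7 in R1 and 32.6 in R2. KCNK1 followed with 31.2, 25.7 and 23.7, and KCNQ1 with 25.8, 24.0 and 20.4. In parental cells the next in order were KCNK5 at 18.6, KCNAB2 at 11.8 and KCNK6 at 5.37 CPM per kilobase. In both resistant lines KCNAB2 stood above KCNK5, with 12.9 against 8.21 in R1 and 12.3 against 8.50 in R2. Neighbours among these 6 genes did not overlap between libraries within any line. Below them most neighbours in the order overlapped, for example KCNV1, KCNJ11, KCNC4 and KCND3 in parental cells.

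**Figure D1:**
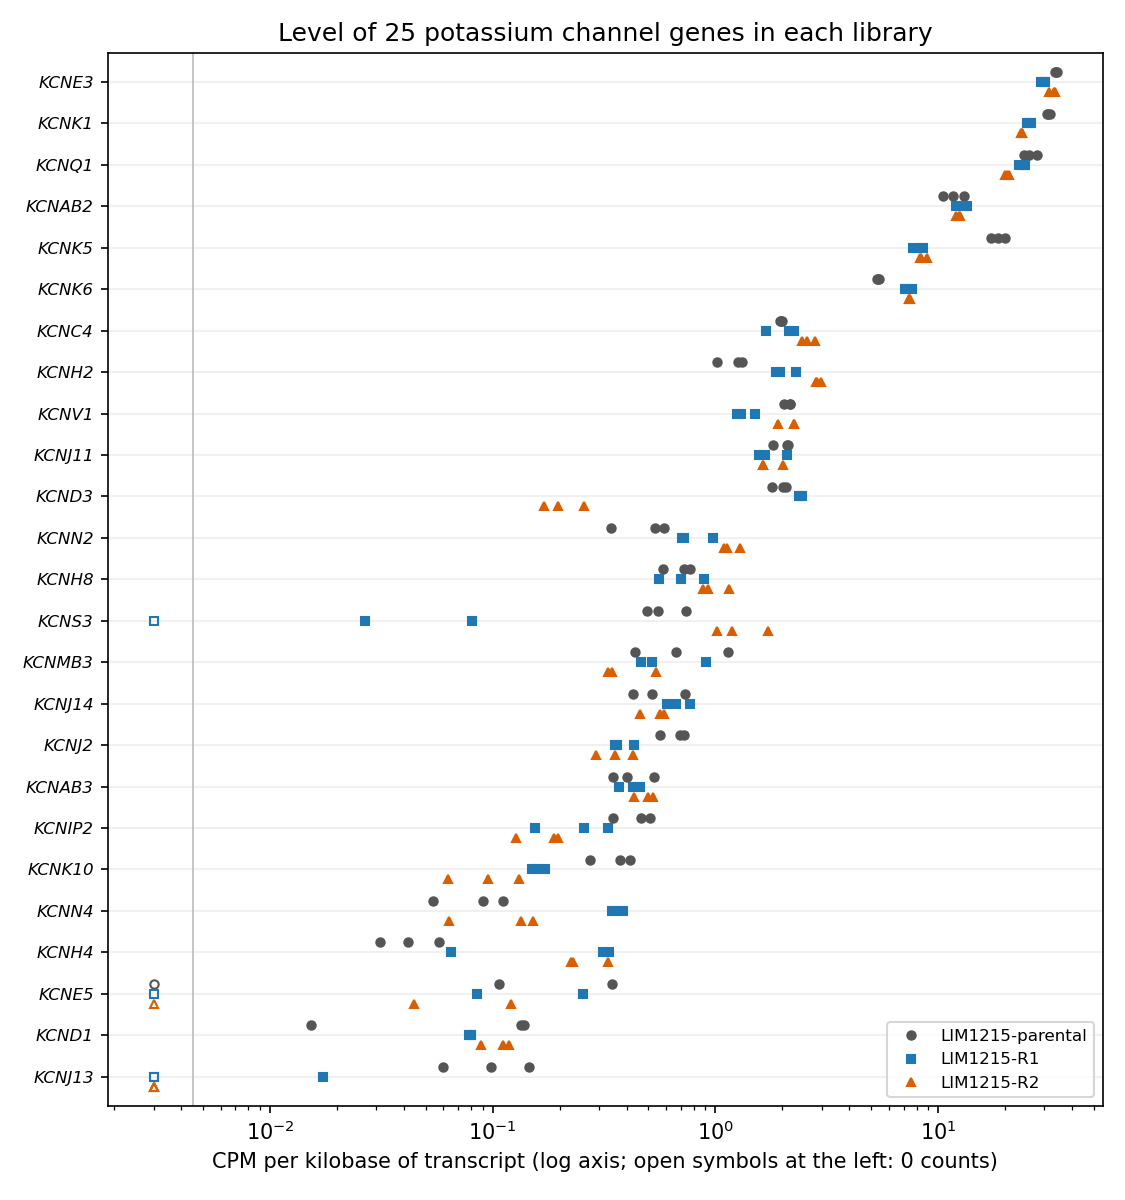
Level of 25 of the 27 potassium channel genes in each of the 9 libraries, in CPM per kilobase of transcript on a log axis, with 0 counts drawn as open symbols at the left edge. KCNE3, KCNK1 and KCNQ1 lie at the top in all lines, while the R2 libraries of KCND3 and the R1 libraries of KCNS3 lie far to the left of the others.

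Members were called where the adjusted p was 0.01 or less and the log2 fold change 1.5 or more in either direction (edgeR's quasi-likelihood test, Benjamini-Hochberg adjustment over all genes tested). In R1 against parental cells, 2 of 27 members were called higher (KCNH4 and KCNN4), beside 3.24% of all genes tested, and 2 lower (KCNS3 and KCNJ13), beside 1.91%. In R2 against parental cells, 1 was called higher (KCNH4), beside 2.63%, and 3 lower (KCND3, KCNK10 and KCNJ13), beside 2.19%. Between R2 and R1, KCNS3 was called higher in R2, beside 0.215%, and KCND3 lower, beside 0.550%. KCNJ13 reached the limit of 20 counts only through the parental libraries, where 19 of its counts lay, so its place among the lower genes follows from the choice of members. KCNN4 reached that limit only with its 34 R1 counts out of 53, so its place among the higher genes follows from that choice as well. Both comparisons with parental cells use the same 3 parental libraries.

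At the same adjusted p with no limit on size, 4 members were higher and 8 lower in R1, beside 14.0% and 13.4% of all genes tested, and 15 did not pass. In R2, 6 were higher and 7 lower, beside 12.3% and 11.6%, and 14 did not pass. Between the resistant lines, 3 were higher and 2 lower in R2, beside 3.39% and 3.77%, and 22 did not pass. The median log2 fold change of the members was -0.18 in R1, -0.04 in R2 and -0.02 between them, against -0.01, -0.00 and -0.00 over all genes tested. The median absolute change was 0.34, 0.59 and 0.43 on the log2 scale, against 0.30, 0.28 and 0.18. All genes tested were not matched to the members for level, and sparse genes scatter widely (KCNE5 in R2 -1.24, SE 1.12). These medians therefore do not show that potassium channel genes changed more than others of like level.

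**Figure D2:**
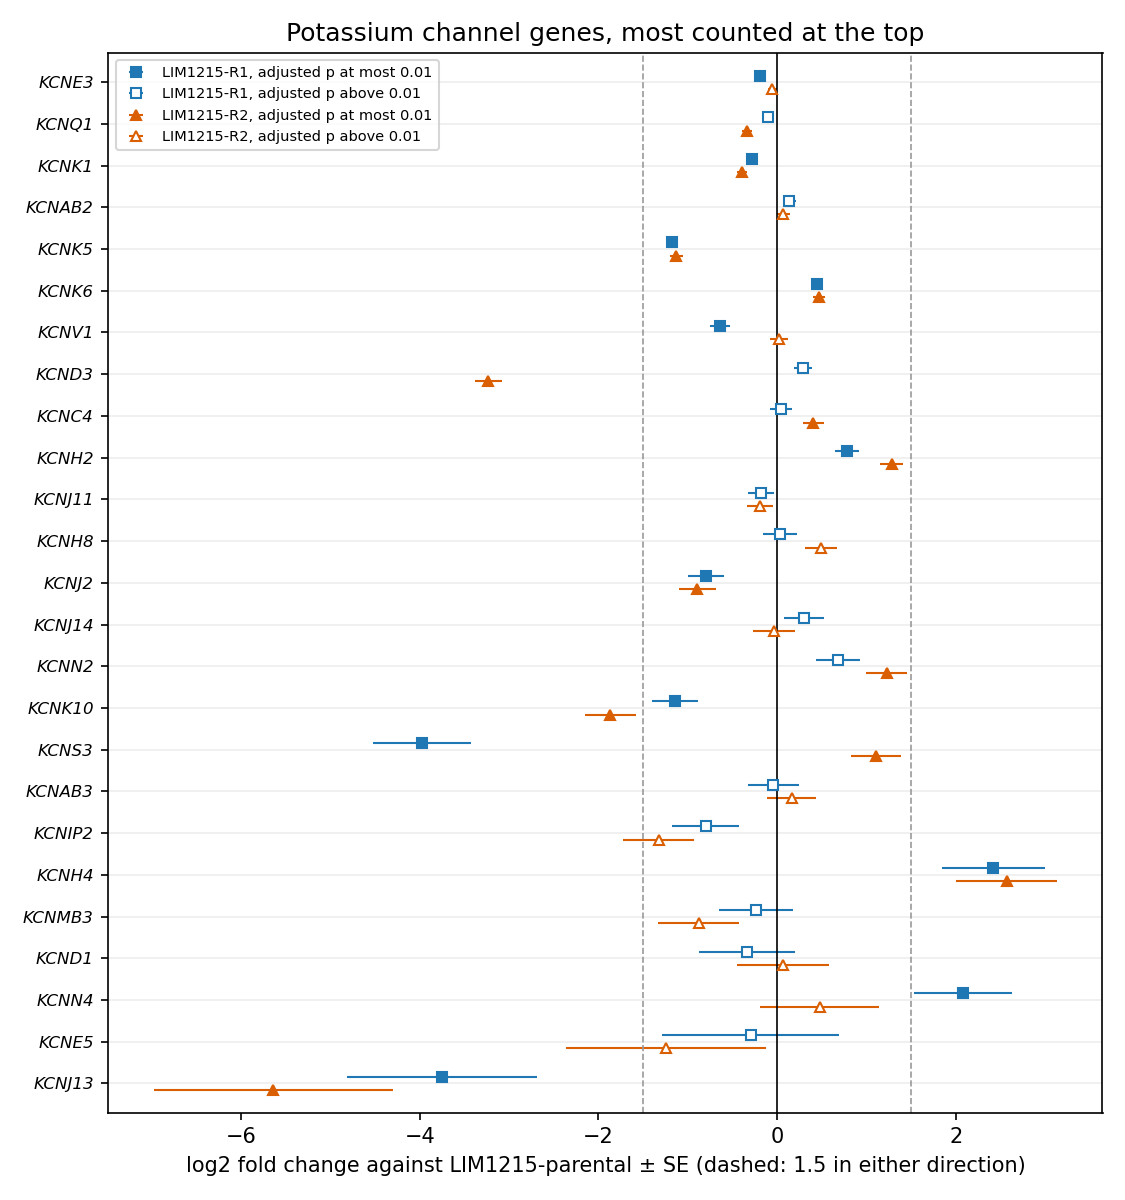
Log2 fold change ± SE of 25 of the 27 members against parental cells in R1 (squares) and R2 (triangles), filled where the adjusted p was at most 0.01, with dashed lines at 1.5 in either direction. KCND3 in R2 (-3.23) and KCNS3 in R1 (-3.97) stand apart from the other line, and the fitted values of KCNJ13, which had 1 and 0 counts in the resistant lines, are no bounds.

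The stretches of 250 bases just before the RefSeq start of 4 genes are shown, 5′ to 3′ on the strand of the gene, because KCND3 and KCNS3 differed between the resistant lines and KCNK5 and KCNK10 fell in both. They are KCND3 at chr1:111989669-111989918, KCNS3 at chr2:17877597-17877846, KCNK5 at chr6:39229476-39229725 and KCNK10 at chr14:88326913-88327162 of GRCh38.p14, with KCNS3 on the forward strand and the others on the reverse strand. Capitals mark GC boxes, the letters GGGCGG on either strand.
KCND3: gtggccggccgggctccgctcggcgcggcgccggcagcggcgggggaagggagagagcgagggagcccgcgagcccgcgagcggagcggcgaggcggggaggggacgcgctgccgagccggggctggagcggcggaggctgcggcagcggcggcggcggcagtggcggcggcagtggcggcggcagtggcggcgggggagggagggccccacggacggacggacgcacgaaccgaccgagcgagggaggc
KCNS3: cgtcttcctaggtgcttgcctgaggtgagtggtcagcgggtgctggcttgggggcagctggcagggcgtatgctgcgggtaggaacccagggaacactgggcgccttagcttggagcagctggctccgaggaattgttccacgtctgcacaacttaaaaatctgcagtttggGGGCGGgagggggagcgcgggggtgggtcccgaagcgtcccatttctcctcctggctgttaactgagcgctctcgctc
KCNK5: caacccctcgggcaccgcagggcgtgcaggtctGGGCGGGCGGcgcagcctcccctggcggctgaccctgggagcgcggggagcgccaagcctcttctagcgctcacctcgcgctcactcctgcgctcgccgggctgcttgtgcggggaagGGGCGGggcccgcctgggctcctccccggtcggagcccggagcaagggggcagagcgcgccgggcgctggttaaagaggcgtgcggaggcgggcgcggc
KCNK10: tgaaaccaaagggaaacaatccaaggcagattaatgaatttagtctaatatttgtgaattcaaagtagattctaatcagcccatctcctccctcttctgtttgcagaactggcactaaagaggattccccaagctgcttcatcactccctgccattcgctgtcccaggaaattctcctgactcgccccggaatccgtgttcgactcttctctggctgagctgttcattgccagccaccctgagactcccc

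These sequences differ in base composition. The KCND3 stretch is 82.8% G and C with 44 CpG, that of KCNK5 77.2% with 31, that of KCNS3 62.4% with 14 and that of KCNK10 48.0% with 5. RefSeq promoter sequences matched 21 of the 27 members, and the median share of G and C in their 250 bases was 69.2%, against 58.0% over 35116 promoters, with a median of 17 against 11 CpG. Repeated entries of a gene were dropped for the members alone, and the 35116 promoters were not limited to genes with counts. These sets are therefore unlike, for the motifs below as well, and the differences are no trait of potassium channel genes as such. KCNK5 held 3 GC boxes, 217, 213 and 99 bases before its start, of which the first pair overlap, and KCNS3 held 1, at 78 bases. A GC box was found in 15 of the 21 members and in 42.6% of all promoters. A TATA box (TATAAA) was found in 3 members and 10.7% of all promoters, and an E box (CACGTG) in 2 and 6.34%. An AP-1 site (TGANTCA, where N is any base) and a cAMP response element (TGACGTCA) were found in 0 members, against 6.57% and 1.65% of all promoters. All motifs were searched on both strands, and such a match describes letters only, not binding.

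Among voltage-gated pores, KCND3, which forms a rapidly inactivating channel known from heart and brain, separated R2 from the other lines. Its level was 15.4, 13.7 and 15.8 CPM in the parental libraries, 18.4, 18.1 and 18.7 CPM in R1 and 1.96, 1.30 and 1.5 CPM in R2. The R2 libraries were all far below the other 6, and the R1 libraries all lay above the parental ones. KCND3 fell by 3.23 on the log2 scale in R2 against parental cells (SE 0.148, adjusted p = 4.57e-16), which is 9.39-fold lower. Against R1 it was 11.5-fold lower (log2 fold change -3.52, SE 0.144, adjusted p = 9.66e-16). In R1 the change of 0.29 did not pass (adjusted p = 0.0204).

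KCND3 spans chr1:111770662-111989668 on the reverse strand, and DDX20, an RNA helicase gene that overlaps it on the other strand, had a log2 fold change of -0.07 between R2 and R1 (adjusted p = 0.555). Strand-specific counting keeps those reads apart. It does not separate KCND3 from KCND3-IT1, whose span overlaps it on its own strand, and whether their exons overlap was not checked. Of 25 tested genes within 1 Mb of KCND3, LINC01750 alone was past the threshold between the resistant lines, on the lower side that held 0.550% of all genes tested, and it is named here after its values were seen. This long non-coding RNA gene lies at chr1:111990536-111998842 on the forward strand, 867 bases beyond the start of KCND3 in RefSeq and 101 bases beyond it in GENCODE release 44, so in the latter it begins within the KCND3 stretch shown. Its counts were 10, 6 and 12 in parental cells, 6, 11 and 13 in R1 and 0, 1 and 1 in R2, where every library was below all others. The 2 counts of R2 were 13.6-fold below parental cells (95% exact counting interval 3.42 to 117, adjusted p = 0.000565) and 15.0-fold below R1 (interval 3.81 to 130, adjusted p = 0.00112). Without R2 replicate 1 the difference from R1 no longer passed (adjusted p = 0.0133).

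The KCND3 partners were sparse. KCND1, a pore of the same family, had 0.451 ± 0.328, 0.373 ± 0.00463 and 0.499 ± 0.0736 CPM in parental cells, R1 and R2, and KCND2 had 0 counts. KCNIP2, a calcium-binding subunit that raises the surface level of these channels, had 1.06 ± 0.200, 0.600 ± 0.212 and 0.414 ± 0.0910 CPM, and its log2 fold change of -1.33 in R2 did not pass (adjusted p = 0.0112). DPP6 and DPP10, which speed the gating of KCND channels, had 0 counts.

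KCNQ1 and KCNE3 together form the cAMP-regulated basolateral channel of colonic crypts, in which KCNE3 holds the KCNQ1 pore open. KCNQ1 had 83.3 ± 5.57 CPM in parental cells, 77.4 ± 2.36 in R1 and 65.9 ± 1.59 in R2. It fell by 0.34 on the log2 scale in R2 (SE 0.0586, adjusted p = 4.22e-05), while the change of -0.10 in R1 did not pass (adjusted p = 0.175). KCNE3 had 104 ± 1.32, 90.9 ± 2.01 and 99.98 ± 3.47 CPM and fell by 0.19 in R1 (adjusted p = 0.00439). The ratio of KCNE3 to KCNQ1 per kilobase was 1.31 ± 0.103 in parental cells, 1.24 ± 0.0550 in R1 and 1.60 ± 0.0921 in R2 (SD, n = 3), and the 3 ratios of R2, 1.5 to 1.68, lay above the other 6.

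The fall of KCNE3 did not pass without parental replicate 1 (adjusted p = 0.0147) or 3 (0.0237), or without R1 replicate 2 (0.0172) or 3 (0.0142). The difference of KCNQ1 between R2 and R1, -0.23 with an adjusted p of 0.00817, reached an adjusted p of 0.0111 to 0.0584 when parental replicate 1, R1 replicate 2 or 3 or any R2 library was left out.

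KCNH2, the pore of the rapid delayed rectifier of heart muscle, which is also found in colorectal tumours, rose in both resistant lines. Its level was 5.43, 5.63 and 4.36 CPM in parental cells, 8.40, 9.85 and 8.01 CPM in R1 and 12.3, 12.1 and 12.8 CPM in R2. The 3 lines did not overlap. The log2 fold change was 0.78 in R1 (SE 0.134, adjusted p = 3.17e-05) and 1.28 in R2 (SE 0.127, adjusted p = 4.30e-09). The difference between the resistant lines, 0.50 with an adjusted p of 0.00401, did not pass without R1 replicate 1 or 3 or any R2 library (adjusted p = 0.0136 to 0.0377).

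KCNH4 and KCNH8 form related voltage-gated pores that are best known from brain. KCNH4 had 2, 3 and 3 counts in the parental libraries (0.118, 0.217 and 0.158 CPM), 4, 20 and 19 in R1 (0.245, 1.26 and 1.19 CPM) and 21, 14 and 13 in R2 (1.25, 0.867 and 0.849 CPM). The first R1 library lay close to the parental level, and no resistant library fell below the highest parental one. The log2 fold change was 2.42 in R1 (SE 0.578, adjusted p = 0.00143) and 2.57 in R2 (SE 0.567, adjusted p = 0.000716). The call in R1 was lost without its replicate 2 (adjusted p = 0.0112) or replicate 3 (0.0136). KCNH8 had 3.50 ± 0.482, 3.63 ± 0.843 and 4.99 ± 0.721 CPM, and its largest log2 fold change against parental cells, 0.49 in R2, did not pass (adjusted p = 0.0369).

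KCNC4, a fast-inactivating channel of nerve and muscle, had 8.15 ± 0.113, 8.39 ± 1.23 and 10.8 ± 0.702 CPM and rose by 0.41 on the log2 scale in R2 (adjusted p = 0.0094), which did not pass without any one of the parental or R2 libraries or R1 replicate 3 (adjusted p = 0.0127 to 0.0491).

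KCNS3 does not form a channel by itself but joins other voltage-gated pores and changes their gating. Its level was 1.30, 1.16 and 1.73 CPM in parental cells, 0, 0.188 and 0.0626 CPM in R1 and 2.38, 2.79 and 4.05 CPM in R2. The 3 lines did not overlap, with R1 below and R2 above parental cells. KCNS3 was 15.7-fold lower in R1 than in parental cells (log2 fold change -3.97, SE 0.547, adjusted p = 1.28e-06), from 4 counts over the 3 R1 libraries. In R2 it rose by 1.11 on the log2 scale (SE 0.274, adjusted p = 0.00227), and between the resistant lines it was 33.8-fold higher in R2 (log2 fold change 5.08, SE 0.474, adjusted p = 1.21e-08). That the resistant lines differ in KCNS3 was already known from earlier results of these data.

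Single libraries moved these sizes. Without R1 replicate 2, which held 3 of the 4 counts of that line, the log2 fold change of KCNS3 was -5.20 in R1 against parental cells and 6.31 between the resistant lines. At the other end, leaving out 1 library gave -3.42 and 4.53. Over all 17 settings the smallest value between the resistant lines was 2.13. The rise in R2 did not pass without parental replicate 1 (adjusted p = 0.0127) or R2 replicate 3 (0.0342). KCNS3 lies at chr2:17877847-17932958 on the forward strand, and of 5 tested genes within 1 Mb 0 were past the threshold between the resistant lines (all genes 0.215% higher and 0.550% lower) and 3 passed at any size (3.39% and 3.77%), with log2 fold changes from -0.21 to 0.98.

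KCNV1, the other silent subunit, which also joins other pores, was lower in R1 alone. Its level was 14.9, 15.0 and 14.1 CPM in parental cells, 9.02, 8.66 and 10.5 CPM in R1 and 15.6, 15.5 and 13.3 CPM in R2. R1 lay below both other lines, which overlapped. KCNV1 fell by 0.64 on the log2 scale in R1 (SE 0.108, adjusted p = 2.48e-05) and was 0.66 higher in R2 than in R1 (SE 0.108, adjusted p = 8.73e-05), while R2 differed from parental cells by 0.02 (adjusted p = 0.912).

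**Figure D3:**
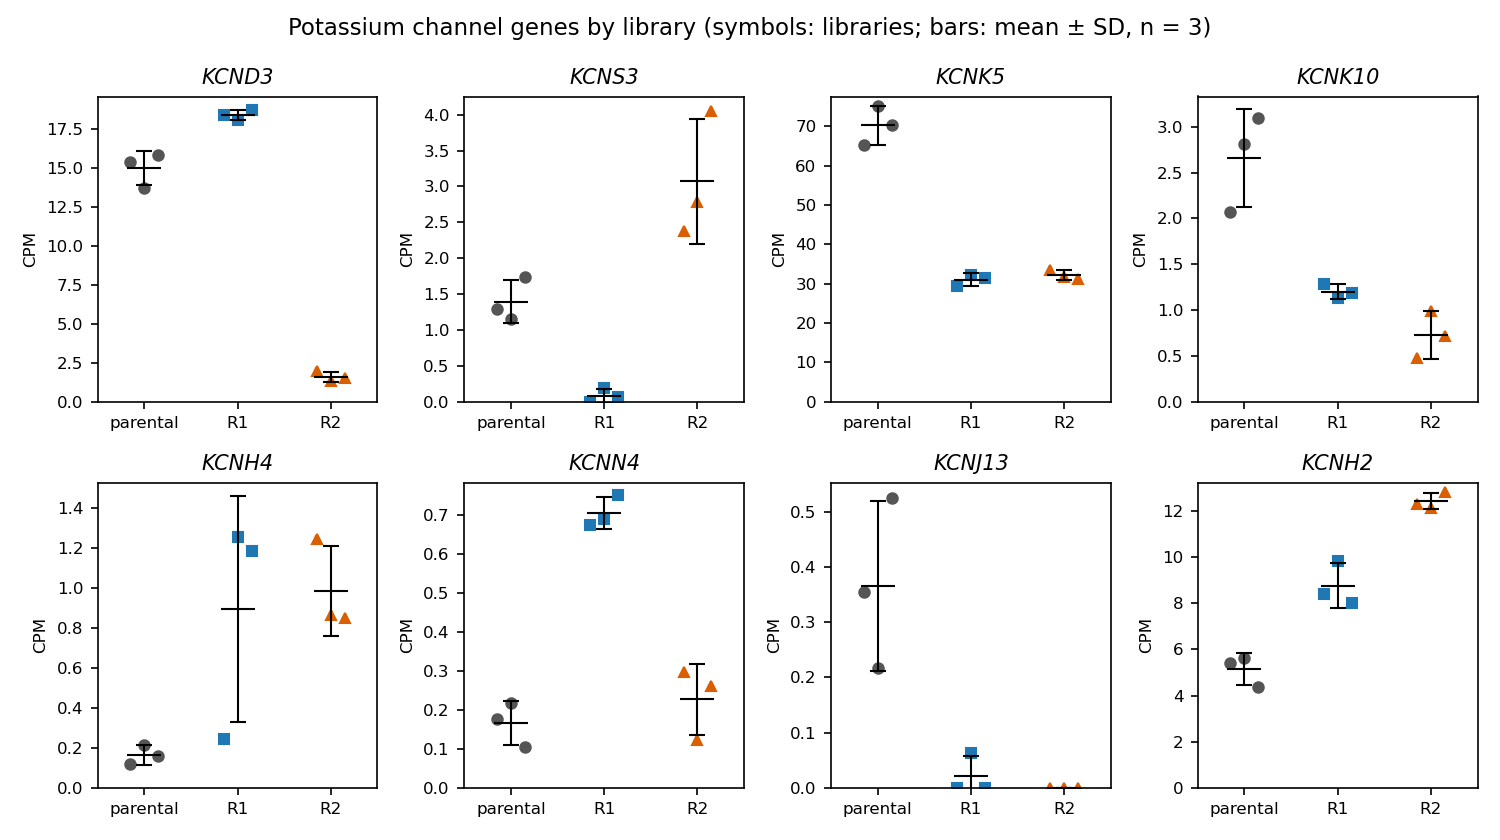
CPM of 8 potassium channel genes in each library, with the mean ± SD of each line (n = 3) and a linear axis from 0 in every panel. KCND3 was at 1.30 to 1.96 CPM in R2 against 13.7 to 18.7 CPM elsewhere, KCNS3 was at most 0.188 CPM in R1, and the first R1 library of KCNH4 (0.245 CPM) stood apart from the other 2.

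Two-pore-domain channels are open at rest and carry the background potassium current. All 4 members passed at any size in both resistant lines, 1 higher and 3 lower. Beside them stood 14.0% and 13.4% of all genes tested in R1 and 12.3% and 11.6% in R2. Those genes were not matched for level, and well-counted genes pass at smaller changes. The summed level of the class was 168 ± 6.65 CPM in parental cells, 127 ± 1.94 in R1 and 124 ± 1.45 in R2. KCNK5, a pore opened by alkaline pH that is found in transporting epithelia, had 65.3, 75.3 and 70.4 CPM in parental cells, 29.3, 32.3 and 31.5 CPM in R1 and 33.6, 31.6 and 31.2 CPM in R2. The resistant lines overlapped with each other and lay below every parental library. KCNK5 was 2.26-fold lower in R1 (log2 fold change -1.18, SE 0.0688, adjusted p = 9.43e-14) and 2.18-fold lower in R2 (-1.13, SE 0.0685, adjusted p = 2.09e-13).

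KCNK10, a pore that responds to stretch, heat and lipids, fell as well. It had 2.07, 2.82 and 3.10 CPM in parental cells, 1.29, 1.13 and 1.19 CPM in R1 and 0.476, 0.991 and 0.719 CPM in R2. The 3 lines did not overlap, with R2 lowest, but the difference of -0.72 between the resistant lines did not pass (adjusted p = 0.169). The log2 fold change was -1.14 in R1 (SE 0.262, adjusted p = 0.000946), which did not pass without parental replicate 3 (adjusted p = 0.0113), and -1.87 in R2 (SE 0.288, adjusted p = 7.52e-06).

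KCNK1 and KCNK6 are close relatives of each other that conduct weakly at the surface and are found in endosomes and lysosomes, and they moved in opposite directions. KCNK1 had 64.4 ± 1.04 CPM in parental cells, 52.9 ± 1.15 in R1 and 48.9 ± 0.329 in R2, and fell by 0.28 (adjusted p = 0.000255) and 0.40 (adjusted p = 3.00e-06) on the log2 scale. KCNK6 had 30.7 ± 0.343, 41.9 ± 1.54 and 42.6 ± 0.30 CPM, and rose by 0.45 (adjusted p = 4.02e-06) and 0.47 (adjusted p = 1.61e-06).

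KCNN4 and KCNN2 are the calcium-activated pores among the members. KCNN4, the intermediate-conductance channel that carries calcium-driven potassium exit in the colon, had 3, 3 and 2 counts in parental cells (0.177, 0.217 and 0.105 CPM), 11, 11 and 12 in R1 (0.675, 0.690 and 0.751 CPM) and 5, 2 and 4 in R2 (0.297, 0.124 and 0.261 CPM). R1 lay above all libraries of the other lines, which overlapped, and without the R1 counts KCNN4 would not have reached the limit for members. The fold changes and adjusted p that follow are therefore a description and no support for a rise in R1. The log2 fold change was 2.08 in R1 (SE 0.547, adjusted p = 0.00345), which was lost without parental replicate 1 (adjusted p = 0.0112) or 3 (0.0249) or R1 replicate 3 (0.0139), and with DESeq2's Wald test (0.0190). It was 0.48 in R2 (adjusted p = 0.651), and the difference of -1.60 between the resistant lines did not pass (adjusted p = 0.0390).

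KCNN2, a small-conductance channel of nerve and muscle, had 1.48, 0.939 and 1.63 CPM in parental cells, 1.96, 2.7 and 2.0 CPM in R1 and 3.57, 3.10 and 3.00 CPM in R2. The 3 lines did not overlap. KCNN2 rose by 1.23 on the log2 scale in R2 (SE 0.232, adjusted p = 0.000122), while the change of 0.69 in R1 (adjusted p = 0.0297) and the difference of 0.54 between the resistant lines (adjusted p = 0.106) did not pass. KCNMA1, the large-conductance pore, had 3 counts in all, beside 0.811 ± 0.391, 0.682 ± 0.261 and 0.439 ± 0.129 CPM of its auxiliary subunit KCNMB3, which passed in no comparison.

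Among inward rectifiers, KCNJ13, an epithelial channel that recycles potassium beside the sodium pump, was at the limit of counting. It had 6, 3 and 10 counts in parental cells, 0, 1 and 0 in R1 and 0 in each R2 library, so every parental library was above every resistant one. As the parental counts alone brought it to the limit for members, the folds and adjusted p that follow are a description and no support for a fall. The level in R1 was 18.4-fold below parental cells (95% exact counting interval 2.92 to 764, adjusted p = 0.00657). With R2 set at the limit of 3 counts over the line and the parental counts taken as exact, R2 was 6.14-fold lower (adjusted p = 0.00174). That fold leaves out the counting error of the parental libraries. The call in R1 was lost without parental replicate 1 (adjusted p = 0.0141) or 3 (0.0386) or R1 replicate 1 (0.0261) or 3 (0.0315), and that in R2 without parental replicate 3 (0.0112). With DESeq2's Wald test the call in R1 was lost as well (0.0311). Without R1 replicate 2, which held its only count, that line was at 0 and the fitted log2 fold change moved from -3.75 to -5.64. KCNJ13 lies at chr2:232765802-232776565 on the reverse strand, within the span of GIGYF2 on the forward strand, and its counts are uncertain because a non-coding gene overlaps it on its own strand.

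KCNJ2, a strong inward rectifier that holds the resting voltage, had 3.89, 3.03 and 3.73 CPM in parental cells, 1.90, 1.95 and 2.32 CPM in R1 and 1.90, 2.29 and 1.57 CPM in R2. All resistant libraries were below all parental ones. KCNJ2 fell by 0.80 on the log2 scale in R1 (SE 0.204, adjusted p = 0.00268) and by 0.89 in R2 (SE 0.206, adjusted p = 0.00119). The first did not pass without parental replicate 1 or 3 or R1 replicate 1 or 2 (adjusted p = 0.0106 to 0.0162) or with DESeq2's Wald test (0.0149), and the other not without R2 replicate 3 (0.0108). KCNJ11, the pore of the ATP-sensitive channel, had 6.85 ± 0.565, 6.06 ± 0.963 and 6.01 ± 0.737 CPM and passed in no comparison, and of the regulatory subunits it needs, ABCC8 had 0 counts and ABCC9 14 over the 9 libraries. KCNJ14 had 2.16 ± 0.599, 2.62 ± 0.312 and 2.06 ± 0.264 CPM and passed in no comparison, and its counts are uncertain because GRWD1 overlaps it on the same strand.

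The remaining auxiliary subunits passed in no comparison. KCNAB2, a cytoplasmic subunit of KCNA channels, had 49.1 ± 5.13, 53.9 ± 3.23 and 51.4 ± 0.851 CPM, while the 7 KCNA pore genes other than KCNA6 had 0 counts and KCNA6 had 2. KCNAB3, of the same family, had 1.23 ± 0.267, 1.20 ± 0.125 and 1.39 ± 0.136 CPM and shares its strand with an overlapping non-coding gene. KCNE5, which inhibits KCNQ1, had 0.221 ± 0.259, 0.167 ± 0.191 and 0.0812 ± 0.0903 CPM, and ACSL4 overlaps it on the same strand, so its counts are uncertain.

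Genes that work with potassium channels were taken from 3 lists, and all genes tested were not matched to these lists for level. Of 20 tested genes of epithelial ion transport, 1 was called higher and 1 lower in each resistant line, beside 3.24% and 1.91% of all genes tested in R1 and 2.63% and 2.19% in R2. The higher one was CFTR, the chloride channel of the secretory pathway, with 33.9, 33.2 and 33.1 CPM in parental cells, 103, 95.9 and 94.8 CPM in R1 and 139, 131 and 124 CPM in R2. The 3 lines did not overlap. The log2 fold change was 1.55 in R1 (SE 0.0615, adjusted p = 2.06e-17), 1.97 in R2 (SE 0.0608, adjusted p = 9.65e-20) and 0.42 between them (adjusted p = 3.80e-06). The lower one was SLC4A4, a sodium bicarbonate cotransporter, which had 2, 3 and 9 counts in the parental libraries and 0 in all resistant ones. With each resistant line set at 3 counts and the parental counts taken as exact, SLC4A4 was 4.52-fold lower in each line (adjusted p = 0.00751 and 0.00837). It passed the filter for testing through the parental counts alone, so this call follows from the filter. Those calls did not pass when any one library of the resistant line concerned was left out (adjusted p = 0.0192 to 0.0297).

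At any size, 8 genes of ion transport were higher and 4 lower in R1, and 6 were higher and 4 lower in R2, beside 14.0% and 13.4% of all genes tested in R1 and 12.3% and 11.6% in R2. SLC12A2, the cotransporter that loads chloride for secretion, had 374 ± 15.6, 530.5 ± 26.7 and 638 ± 29.7 CPM and rose by 0.50 (adjusted p = 7.27e-10) and 0.77 (adjusted p = 1.20e-13) on the log2 scale. ANO1, a calcium-activated chloride channel, had 31.7 ± 2.54, 34.4 ± 2.39 and 14.7 ± 1.62 CPM and fell by 1.11 in R2 (adjusted p = 1.21e-10), while the change of 0.12 in R1 did not pass (adjusted p = 0.297). Between the resistant lines 3 genes of the list were higher in R2, beside 3.39% of all genes tested, and 1, ANO1, lower (log2 fold change -1.22, adjusted p = 1.5e-10), beside 3.77%.

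Of 24 tested genes of calcium signals and channel regulators, 1 was called higher and 1 lower in R1, and 1 higher and 2 lower in R2, beside the same 3.24%, 1.91%, 2.63% and 2.19% of all genes tested. At any size 5 were higher and 9 lower in R1 (all genes 14.0% and 13.4%), 4 and 7 in R2 (12.3% and 11.6%), and 1 and 1 between the resistant lines (3.39% and 3.77%), the last of these near the share over all genes. ITPR1, which releases calcium from the endoplasmic reticulum, had 0.531, 0.506 and 0.368 CPM in parental cells, 5.09, 4.71 and 4.63 CPM in R1 and 6.01, 6.63 and 5.75 CPM in R2, and rose by 3.36 (SE 0.238, adjusted p = 5.49e-12) and 3.71 (SE 0.229, adjusted p = 2.90e-13) on the log2 scale. Of the other receptors of this kind, which were far more counted, ITPR2 had 504 ± 20.6, 277 ± 18.0 and 404 ± 7.98 CPM and fell by 0.87 in R1 (adjusted p = 1.57e-14) and 0.32 in R2 (adjusted p = 2.52e-06), while ITPR3 had 490 ± 19.6, 474 ± 19.1 and 502 ± 8.11 CPM and passed in no comparison. PRKACB, a catalytic subunit of the cAMP-dependent kinase, had 3.95, 3.61 and 4.99 CPM in parental cells, 1.84, 0.628 and 0.939 CPM in R1 and 0.416, 0.557 and 0.523 CPM in R2. It fell by 1.88 (SE 0.265, adjusted p = 1.87e-06) and 3.07 (SE 0.312, adjusted p = 6.80e-09). PRKACA, another catalytic subunit of that kinase, was far more counted and passed in no comparison. It had 63.8 ± 8.59 CPM in parental cells, 67.5 ± 7.72 in R1 and 66.0 ± 2.07 in R2. For ITPR1 and PRKACB all resistant libraries lay on 1 side of all parental ones.

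SGK1, a kinase that raises channels at the cell surface, had 0.767, 0.939 and 1.47 CPM in parental cells, 0.675, 0.753 and 0.438 CPM in R1 and 0.0595, 0.248 and 0.261 CPM in R2. The lines did not overlap, and SGK1 fell by 2.48 on the log2 scale in R2 (SE 0.500, adjusted p = 0.000266), while the change of -0.78 in R1 (adjusted p = 0.135) and the difference of -1.70 between the resistant lines (adjusted p = 0.0408) did not pass.

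AMIGO1, an adhesion protein that accompanies voltage-gated pores, had 9.26 ± 0.642, 12.3 ± 0.993 and 14.7 ± 0.841 CPM in parental cells, R1 and R2. It passed the test at a log2 fold change of 0.41 in R1 (adjusted p = 0.00357) and 0.68 in R2 (adjusted p = 9.53e-06), under the size of a call, and did not pass between the lines (0.27, adjusted p = 0.0916). LRRC26, an auxiliary subunit of the large-conductance channel in secretory epithelia, had 19.7 ± 2.86, 22.8 ± 3.02 and 21.7 ± 2.46 CPM and did not pass, beside the 3 counts of its pore KCNMA1.

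**Figure D4:**
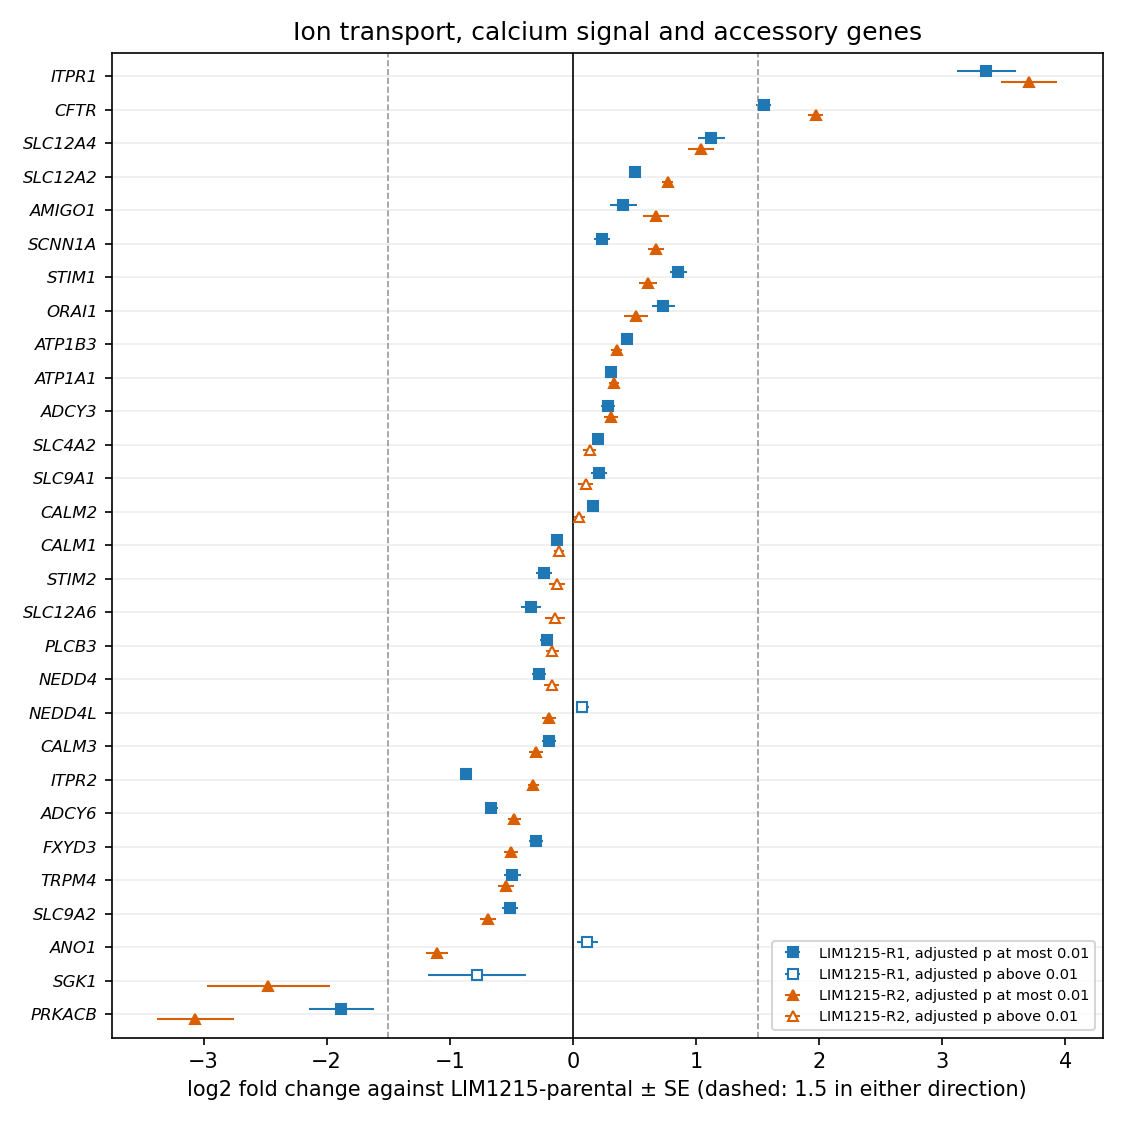
Log2 fold change ± SE against parental cells of 29 tested genes of the 3 lists with more than 3 counts in every line and an adjusted p of at most 0.01 in R1 (squares) or R2 (triangles), filled where that line passed, with dashed lines at 1.5 in either direction. ITPR1 and CFTR lie right of the dashed line in both lines, PRKACB lies left of it in both, and ANO1 (-1.11) and SGK1 (-2.48) passed in R2 alone.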

How the data were processed

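Stranded poly(A) libraries were made from the 3 lines. Reads were mapped by the authors with STAR on hg38, and the raw counts that HTSeq 0.9.1 gave for each gene on the reverse strand were deposited, 1 table per library. The gene annotation behind the counting is not given in the sources used here. Libraries were grouped by the line in their titles, and total counts lay between 13737416 and 18725014.

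The 19102 genes that summed to 10 counts or more were fitted in R 4.3.3 with edgeR 4.0.16 (TMM, quasi-likelihood test, 3 lines as groups, Benjamini-Hochberg adjustment), a procedure first tested on simulated data. The SE was derived from the test statistic. Calls needed an adjusted p of 0.01 or less and a log2 fold change of 1.5 or more in either direction. Filters, scaling, thresholds, DESeq2 1.42.0, a replicate block and each library were varied or left out in turn.

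Members past the threshold are given by library, and the others with group means or ranges. The members and lists were chosen with earlier results of these data known, and KCNS3 was already known to differ between the resistant lines. Some genes, 2 members among them, are not reported here, though counts over all members include them. Positions and promoters are from RefSeq (GRCh38), and lengths from GENCODE release 44. Settings for LINC01750 and partner genes were added after seeing the data.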

Additional observations from a re-analysis of the deposited data

Results flagged for a closer look

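The test of the difference between the 2 resistant lines passed for 5 potassium channel genes. Of these, 3 were higher and 2 lower in R2, beside 3.39% and 3.77% of all genes tested. A log2 fold change of 1.5 or more was also reached by 2 of them, 1 higher and 1 lower, beside 0.215% and 0.550%. For KCND3 the log2 fold change of R2 against R1 was -3.52 (edgeR's quasi-likelihood test, adjusted p = 9.66e-16), made of -3.23 in R2 and 0.29 in R1 against parental cells. For KCNS3 it was 5.08 (adjusted p = 1.21e-08), made of 1.11 in R2 and -3.97 in R1. The KCNS3 difference was already known from earlier results of these data, so its flag is a description and no fresh support. Each line was 1 selected population, so a difference between the lines cannot be told apart from one between these cultures.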

How the results depend on the processing

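The 4 calls in R1 became 0 with at least 10 counts in every library or with lfcShrink of DESeq2, 2 with its Wald test and 1 when the threshold itself was tested, while leaving out 1 library gave 1 to 4 (1 without R1 replicate 3, 2 without parental replicate 1 or 3). The 4 calls in R2 became 1 under each of these settings except the Wald test, which kept 4, and 8 at a log2 fold change of at least 1, and leaving out 1 library gave 3 to 4. The 2 calls between the resistant lines became 1 with at least 10 counts in every library, where KCNS3 was not tested, and leaving out 1 library gave 2 in each case. That filter removes genes that are near 0 in 1 line, and lfcShrink pulls low counts towards 0 (KCNS3 in R1 to -1.33). The shares of all genes called under these settings are not given here, so these counts describe the members only. No direction was reversed for any result under any setting. Testing the threshold itself and lfcShrink each ended the calls of KCNH4, KCNJ13 and KCNK10 in R2, of PRKACB in R1, of SGK1 in R2 and of LINC01750 in R2. DESeq2's Wald test ended the passes of KCNC4 in R2 (adjusted p = 0.0245) and of KCNH2 between the resistant lines (0.0102). KCND3 kept its call in all 18 settings of each comparison with R2. CFTR in R1 passed all but the test against the threshold, since its log2 fold change was 1.55.

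Same-numbered libraries of different lines deviated from their line means with correlations from -0.106 to 0.274, and differently numbered ones from -0.265 to 0.191. These ranges overlap and do not decide whether the numbers pair the libraries, which the main fit took as unpaired. With the number as a replicate block, 4, 4 and 2 potassium channel genes were called in the 3 comparisons, as without it. The share of all genes called with the block is not given here, so these counts describe the members only. Depth limits what can be said of KCNJ13, KCNH4 and KCNN4, which had 10 counts or fewer in each parental library.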
